A study of Mus musculus with 2 samples.

Results

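Interferon-inducible and DNA-sensing genes were examined for H3K9me3, a histone mark of silenced chromatin, in mice that had lost histone demethylases of the Kdm4 family. The members were Irgm2, Ifit2, Oas1a, Oas1b, Trim25, Bst2 and Aim2, chosen by gene symbol and selected on their H3K9me3 levels and knockout to control ratios in this same table, and each had 1 region in the deposited table, 7 of its 1381 regions. The table lists H3K4me3 regions (H3K4me3 marks active start sites) near gene starts, with an H3K9me3 value for each of 2 chromatin immunoprecipitation sequencing (ChIP-seq) libraries. The control library came from C57BL6 mice labelled as wild type and the knockout library from C57BL6 mice with a conditional deletion of Kdm4a, Kdm4b and Kdm4c. All mice were given tamoxifen, and 2 weeks later LSK cells were sorted from their bone marrow. LSK cells are the lineage-negative, Sca-1-positive, c-Kit-positive fraction that holds blood stem and progenitor cells. The labels name no Cre driver, age or sex and do not say how many mice were pooled for a library.

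Interferons bind receptors on the cell surface and act through JAK kinases and STAT factors, which switch on a large set of antiviral genes by way of a promoter element called the ISRE. Among the products of such genes are sensors of foreign nucleic acid, enzymes that degrade or sequester viral RNA, and membrane proteins that hold back viruses. Blood stem cells respond to interferon, which can draw them out of quiescence. Kdm4 enzymes remove methyl groups from H3K9me3 and from H3K36me3.

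Every region in the table had at least 1 control read and a knockout to control ratio above 2 (the lowest was 2.01), so the direction of the difference was fixed by how the table was assembled. The control and knockout libraries had 24673463 and 26061344 reads behind the scaling. Levels are given in RPM (reads scaled to library size), with the whole reads they stand for, and each ratio has an exact 95% interval (Clopper-Pearson) that covers counting error between the 2 libraries and no spread between animals. With 1 library per group there was no test between genotypes. No input library is among the samples analysed here, so the reads do not show whether H3K9me3 lay above background. None of the 3 deleted genes had a listed region, and of 15 markers of LSK or mature blood cells 1 had one (Ly6a, which encodes Sca-1), so neither the deletion nor the cell type could be checked in these values.

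The sequences around the start sites are shown first, because the listed regions of Aim2 and Ifit2 cover theirs and because Irgm2, Oas1a and Bst2 carry the core of an ISRE. They are RefSeq sequences of GRCm38 (the assembly behind mm10), read 5′ to 3′ on the strand of the gene. Of the 7 members, 6 were matched to a RefSeq promoter window, and the other was Oas1b. Ifit2 had a second window, with a start 394 bp after the listed one and wholly inside the listed region, which is not shown or counted. The listed start sites of Aim2, Ifit2 and Oas1a lie inside their RefSeq genes and are not the genes' 5′ ends. For Ifit2 (plus strand) the gene starts at 34550550 and the listed start is 34550693. For Oas1a (minus strand) the gene's 5′ end is 120907544 and the listed start is 120907525. Part or all of the sequence shown before these start sites thus lies inside the gene. The first pair gives the 250 bases before the listed start site of Aim2 (plus strand, chr1:173420354-173420603) and of Ifit2 (plus strand, chr19:34550444-34550693), with the bases inside the listed region in capitals, 206 for Aim2 and 182 for Ifit2.
Aim2: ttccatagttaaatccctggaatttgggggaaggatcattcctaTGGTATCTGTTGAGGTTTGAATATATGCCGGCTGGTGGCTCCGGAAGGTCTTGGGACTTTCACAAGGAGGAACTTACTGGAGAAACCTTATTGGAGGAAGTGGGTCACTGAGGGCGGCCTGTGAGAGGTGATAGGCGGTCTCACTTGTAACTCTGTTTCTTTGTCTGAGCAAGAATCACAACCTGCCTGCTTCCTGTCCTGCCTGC
Ifit2: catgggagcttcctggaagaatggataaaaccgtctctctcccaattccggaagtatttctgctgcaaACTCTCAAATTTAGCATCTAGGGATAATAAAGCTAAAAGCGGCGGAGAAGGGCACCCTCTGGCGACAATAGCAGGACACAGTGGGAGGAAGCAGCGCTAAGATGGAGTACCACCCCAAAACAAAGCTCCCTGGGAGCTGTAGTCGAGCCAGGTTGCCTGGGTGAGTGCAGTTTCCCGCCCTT

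The second set gives the stretches that hold the core of the ISRE (GAAA, any 2 bases, GAAA) in Irgm2 (plus strand, chr11:58214898-58214937), Oas1a (minus strand, chr5:120907526-120907560) and Bst2 (minus strand, chr8:71537572-71537617). Capitals mark the matches, and in Oas1a and Bst2 a pair of matches overlaps.
Irgm2: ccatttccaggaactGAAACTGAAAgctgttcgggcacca
Oas1a: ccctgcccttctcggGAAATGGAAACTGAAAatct
Bst2: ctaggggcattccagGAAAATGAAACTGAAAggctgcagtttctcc

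Aim2 encodes a cytosolic DNA sensor that assembles an inflammasome with the adaptor ASC and caspase-1. Its region (chromosome 1, 173420398 to 173421604, 1207 bp, from 206 bp before to 1001 bp after the listed start site) held 15 control reads (0.608 RPM) and 53 knockout reads (2.03 RPM). The ratio was 3.35 (1.86 to 6.39). The RefSeq gene runs from 173349547 to 173466040, so this start site is an internal one. The region, the promoter window and its motif and CG counts do not describe the gene's 5′ end. Aim2 was the member with the most H3K9me3 in both libraries. It ranked 7th in the control library and 5th in the knockout library among the 1381 regions, while its ratio ranked 610th. A listed region with 15 control reads needs 32 knockout reads to have a ratio above 2. The other listed region with 15 control reads, Mir5103, held 45 knockout reads.

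Trim25 encodes a ubiquitin ligase that activates the RNA sensor RIG-I. Its region (chromosome 11, 89000061 to 89000456, 396 bp) lay within the gene, from 658 to 1054 bp after the listed start site, and held 1 control read (0.0405 RPM) and 10 knockout reads (0.384 RPM). The ratio was 9.47 (1.35 to 411), and its interval lay above 1.

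Oas1a and Oas1b belong to the 2′-5′ oligoadenylate synthetases, enzymes that on sensing double-stranded RNA make the second messenger that activates RNase L. RefSeq lists Oas1b as a transcribed pseudogene in the C57BL/6J reference, where the gene carries a premature stop. The genes lie on chromosome 5 with 72.1 kb between them. The Oas1a region (120906472 to 120906819, 348 bp, 706 to 1054 bp after the start site) held 1 control read (0.0405 RPM) and 7 knockout reads (0.269 RPM), a ratio of 6.63 (0.851 to 299). The Oas1b region (120813206 to 120813894, 689 bp, 571 to 1260 bp after the start site) held 1 control read (0.0405 RPM) and 3 knockout reads (0.115 RPM), a ratio of 2.84 (0.228 to 149). The intervals of both included 1. Oas1 genes are close copies of each other and how multiply mapped reads were handled is unknown, so both values are uncertain.

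Ifit2 encodes an antiviral protein that binds RNA and acts on translation. Its region (chromosome 19, 34550512 to 34551426, 915 bp, from 182 bp before to 733 bp after the listed start site) held 2 control reads (0.0811 RPM) and 9 knockout reads (0.345 RPM), a ratio of 4.26 (0.882 to 40.5). Ifit2 was the other member, besides Aim2, with more than 1 control read, and its interval included 1.

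Irgm2 encodes an immunity-related GTPase that regulates the other GTPases of its family on the membranes of vacuoles that hold pathogens. Its region (chromosome 11, 58214362 to 58214761, 400 bp) lay upstream of the gene, from -615 to -215 bp relative to the listed start site, and held 1 control read (0.0405 RPM) and 20 knockout reads (0.767 RPM). The ratio was 18.9 (3.03 to 785), the highest of the members and 5th of the whole table. It rests on 1 control read, whose own exact Poisson interval was 0.0253 to 5.57 reads.

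Bst2 encodes tetherin, which holds budding virus particles on the cell surface. Its region (chromosome 8, 71537949 to 71538543, 595 bp, from -1106 to -511 bp relative to the listed start site) held 1 control read (0.0405 RPM) and 3 knockout reads (0.115 RPM), a ratio of 2.84 (0.228 to 149). Bst2 and Oas1b had the same reads, and 3 knockout reads are the fewest that a listed region with 1 control read can have.

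**Figure D1:**
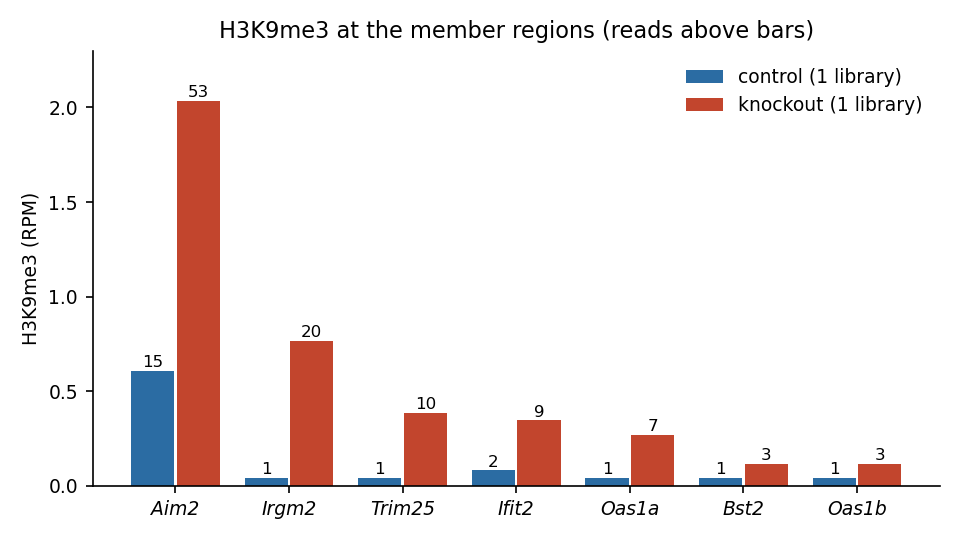
H3K9me3 in RPM at the 7 member regions in the control library (blue) and the knockout library (red), 1 library each and so without error bars, with the whole reads above the bars. Aim2 stands highest in both libraries, and in 5 of the 7 regions the control bar is 1 read.

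In knockout reads the members ran from Aim2 (53, exact Poisson 95% interval 39.7 to 69.3) through Irgm2 (20, 12.2 to 30.9), Trim25 (10, 4.80 to 18.4), Ifit2 (9, 4.12 to 17.1) and Oas1a (7, 2.81 to 14.4) to Bst2 and Oas1b (3 each, 0.619 to 8.77). The interval of Aim2 lay above those of the others, and those of all other neighbours in this order overlapped. In control reads Aim2 (15, 8.40 to 24.7) stood above Ifit2 (2, 0.242 to 7.22) and above the 5 members with 1 read (0.0253 to 5.57). The width of the counting window is not given. Across the 1381 regions the reads of both libraries together had a Spearman's rho of -0.045 with region width, a description over regions that share 2 libraries. Per kb of listed width, the knockout reads were 50 at Irgm2 and 43.9 at Aim2, so the order of these genes in the knockout library differs between levels per region and levels per length. No interval was computed per kb, so whether this change of order exceeds counting error was not tested. Levels per kb have meaning only if reads were counted over the listed width. On this scale Irgm2 ranked 45th and Aim2, whose region is wider than 87.7% of those listed, 65th of the 1381 regions. The control reads per kb of listed width were 2.5 at Irgm2 and 12.4 at Aim2.

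The interval of the ratio lay above 1 at 3 of the 7 member regions (Aim2, Irgm2 and Trim25), where it did so at 21.1% of all listed regions. The deposited ratio was at least 4 at 4 members (Irgm2, Trim25, Oas1a and Ifit2), against 28.6% of all listed regions. The members were chosen with these ratios known, so nothing is read from either count, nor from the median and summed ratios that follow. Their median ratio was 4.26, beside 2.998 over the whole table. Summed over the members, the control library held 22 reads and the knockout library 105, and their ratio was 4.52 (2.83 to 7.52), beside 3.43 (3.31 to 3.57) over the whole table. Aim2 held 68.2% of these control reads and 50.5% of the knockout reads, and without it the summed ratio was 7.03 (3.18 to 18.4), from 7 control reads and 52 knockout reads. Without Irgm2 it was 3.83 (2.35 to 6.51).

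A member's ratio is bound to its control reads, so each was set beside the listed regions with the same number. The 640 regions with 1 control read held a median of 4 knockout reads (quartiles 3 and 5, highest 32). Of these 640, 4 held more knockout reads than Irgm2, 26 more than Trim25 and 74 more than Oas1a. Bst2 and Oas1b were among the 249 regions at the minimum of 3. The 315 regions with 2 control reads held a median of 6 knockout reads (quartiles 5 and 8), and 44 of them held more than the 9 at Ifit2. The members were chosen with these levels and ratios known, so nothing is read from their places among these regions.

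**Figure D2:**
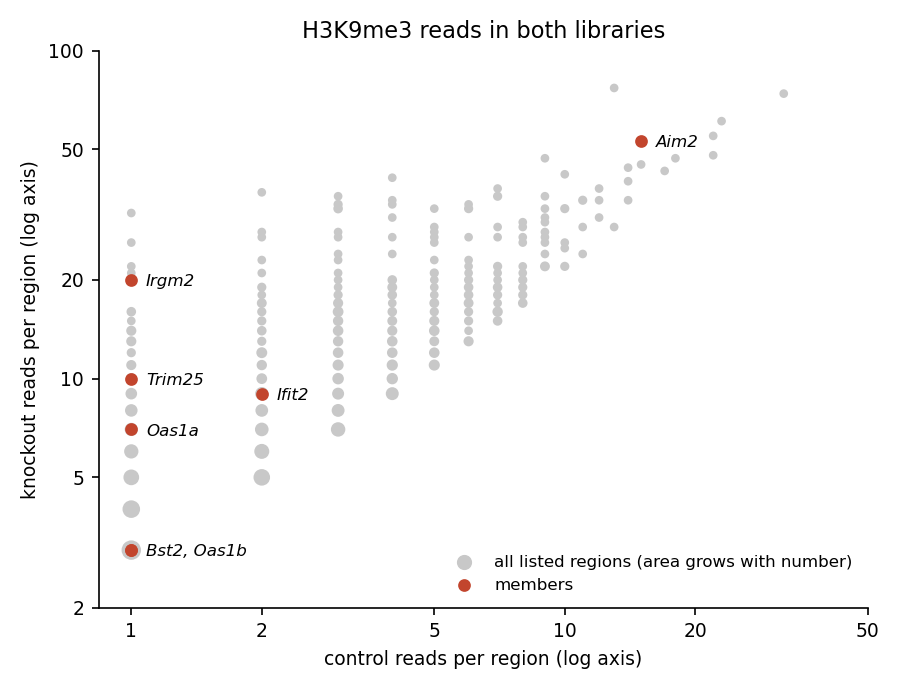
Knockout reads against control reads per region, both on log axes, for all 1381 listed regions (grey, larger where several regions share a point) and the members (red). The empty lower right of the plot is where ratios of 2 or less would lie. Of the 5 members with 1 control read, Irgm2 is highest with 20 knockout reads, and Bst2 and Oas1b lie on the lowest point with 3.

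The regions nearest in pattern were found by the distance between log2 levels in both libraries, over 2 libraries and for members with at least 10 knockout reads. For Irgm2 these were Snapc1 (1 and 21 reads) and Bola1 (1 and 22 reads). For Aim2 they were Mir5103 (15 and 45 reads) and AI506816 (14 and 44 reads). Trim25 shared its 1 and 10 reads with 10 regions of other genes, of which 1700008J07Rik and Acot8 come first by name.

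Only the regions of Aim2 and Ifit2 among the 7 spanned the listed start site, as did 326 regions of the table (23.6%). The Irgm2 and Bst2 regions ended 215 and 511 bp before it, and those of Oas1b, Trim25 and Oas1a began 571, 658 and 706 bp after it, within the gene. The centres of Oas1b, Oas1a, Trim25 and Bst2 lay 915.5, 880, 856 and 808.5 bp from the start site, beside a median of 517 bp over the table, whose regions are all centred within 1000 bp. The annotation used here gives genes but no exons, introns or UTRs. No second RefSeq gene overlapped a member's region.

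**Figure D3:**
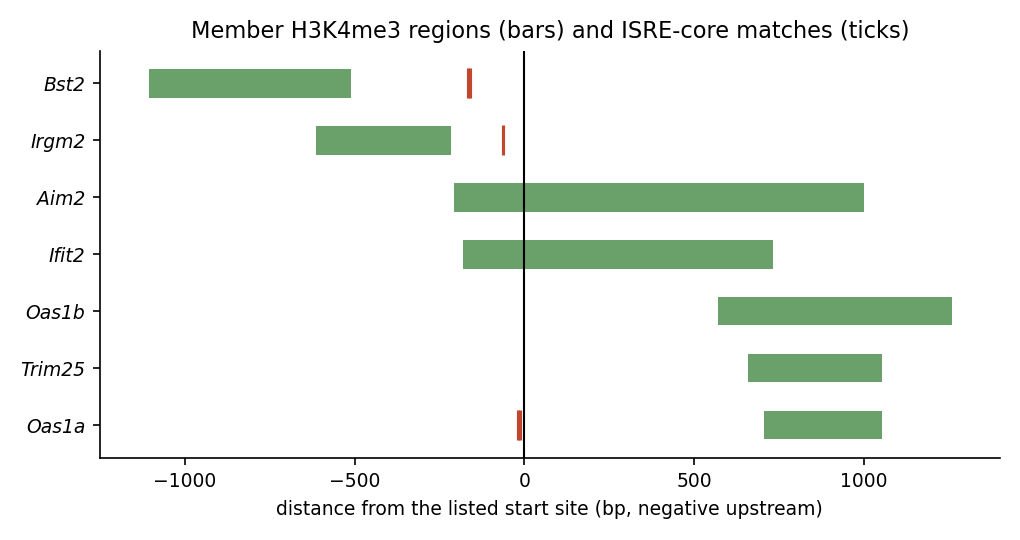
Extent of each member's H3K4me3 region (green bars) in bp from the listed start site (black line, negative upstream), with red ticks at matches of the ISRE core in the RefSeq promoter windows of 6 members. Bars of Aim2 and Ifit2 cross the start site, and no tick lies inside a bar. Oas1b had no window and was not searched.

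H3K4me3 at the member regions, given by the authors as RPKM (reads scaled to region length and library size), ran from 7.44 at Oas1a through 8.63 at Irgm2, 9.19 at Bst2, 11.4 at Aim2, 12.1 at Oas1b and 13.1 at Trim25 to 13.2 at Ifit2. The median over the table was 11.0 (quartiles 8.78 and 14.8). All members but Oas1a and Irgm2 thus lay between the quartiles, and these 2 lay below the lower. The regions rested on 9 H3K4me3 reads at Oas1a and 12 at Irgm2, and on 18 at Trim25, 19 at Bst2, 29 at Oas1b, 42 at Ifit2 and 48 at Aim2. Irgm2 and Oas1a therefore had the lowest H3K4me3 of the 7, on the fewest reads and with no interval computed. A relation between H3K4me3 and the H3K9me3 ratios was not tested.

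Promoter windows (250 bases before to 50 after a RefSeq start, 300 in all) were searched on both strands for 4 motifs. The ISRE core was found in 3 of the 6 member windows, beside 3.44% of all 32851 windows and 2.97% of the 1145 windows of genes with a listed region. It lay at positions -64 to -55 in Irgm2, -20 to -11 and -14 to -5 in Oas1a, and -130 to -121 and -124 to -115 in Bst2, counted from the RefSeq start, which for Bst2 lies 35 bp upstream of the listed one. None of these matches lay inside the listed region of its gene. The Oas1a matches lie almost wholly inside its RefSeq gene, since the listed start is not the gene's 5′ end. TTCNNNGAA, the form of the STAT-binding GAS element, was found in 4 windows (Irgm2, Oas1a, Bst2 and Ifit2), beside 8.30% of all windows and 8.21% of those of genes with a listed region, and in Bst2 it overlapped the first ISRE core. GGGCGG, a GC box, was found in 5 windows, all but Oas1a, beside 35.7% of all windows and 63.9% of those of genes with a listed region. TATAAA was found in none of the 6, beside 13.6% of all windows and 5.68% of those of genes with a listed region. A match describes letters and shows no binding. The members were picked as interferon-inducible genes, a kind that is switched on by way of the ISRE and STAT factors. A high share of ISRE and GAS matches was thus built into the choice, and nothing about H3K9me3 is read from it.

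The member windows were poor in CG dinucleotides for this table. They held 3 at Oas1a, 5 at Aim2, 9 at Irgm2, 10 at Ifit2, 11 at Bst2 and 18 at Trim25. Windows of genes with a listed region held a median of 21 (quartiles 13 and 28) and all RefSeq windows a median of 7 (quartiles 3 and 20). Thus 5 of the 6 lay below the lower quartile of the listed genes, and Trim25 lay between that quartile and the median. The windows of Oas1a, Bst2 and Trim25 do not overlap the listed region, and that of Irgm2 overlaps it by 35 bp. These counts thus describe sequence wholly or mostly outside the listed regions, and the Aim2 window is at an internal start site. Sequence itself was not used to choose the members, though their kind of gene was, and the CG counts were not tested.

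**Figure D4:**
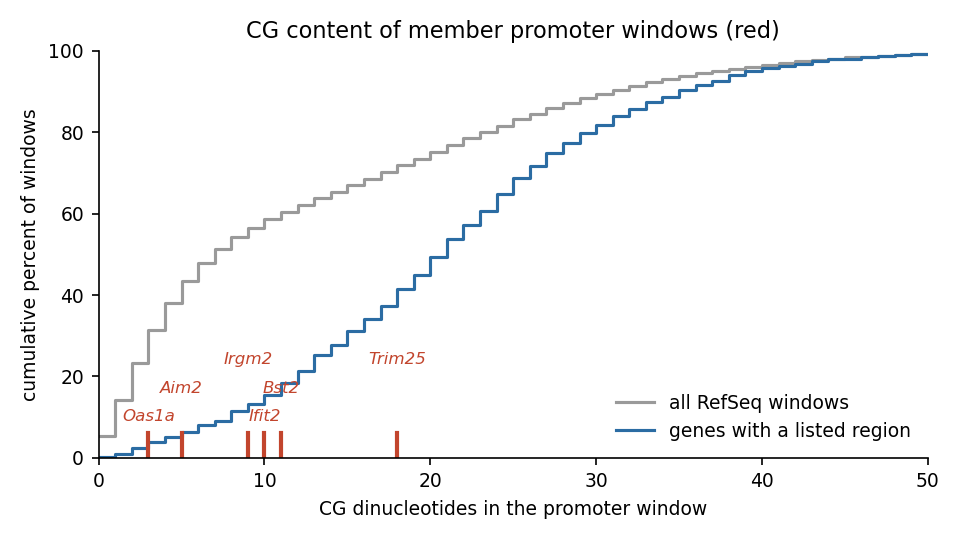
Cumulative percent of promoter windows against the number of CG dinucleotides in 300 bases, for all RefSeq windows (grey) and for genes with a listed region (blue), with the 6 member windows as red marks. All 6 lie left of the listed genes' median of 21. The windows of Oas1a, Bst2 and Trim25 do not overlap their listed regions.

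Several members sit in clusters of related genes. The table lists a region for 5.32% of all protein-coding genes in RefSeq, and with so low a share few relatives of the members would be listed in any case. Of the 8 Oas1 genes, 2 had a listed region, and of the 6 Ifit genes only Ifit2 had one. Aim2 was the only one of 12 genes of the IFI200 family with a region, and Irgm2 the only one of 7 immunity-related GTPase genes examined. Igtp, the GTPase gene 7.39 kb from Irgm2, and Ifit3, 6.59 kb from Ifit2, had none. Neither did Oas1c, whose gene ends 0.095 kb from Oas1b, nor Ifi206, 2.45 kb from Aim2. These distances run between gene bodies and not from the listed regions. The Aim2 region ends at 173421604, far before the gene's end at 173466040, so Ifi206 lies much further from the region. Of the 39 genes that are among the 3 nearest on either side of a member, 0 had a listed region. They include lncRNA genes, pseudogenes and a tRNA gene, so the share over protein-coding genes does not match this set. With so few genes, nothing is read from the count. The level of a gene that is missing from the table is unknown, since regions with ratios up to 2 and regions without control reads are left out along with genes that lack an H3K4me3 region.

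Beyond the members, a list of 134 further genes of interferon signalling, nucleic acid sensing and antiviral defence had a listed region in 8 cases (5.97%), beside 1166 of the 21900 RefSeq protein-coding genes (5.32%). With the members it was 15 of 141 (10.6%). All 7 members have a listed region and were chosen with their ratios known, so leaving them out lowers the share and the ratios. Together the 8 held 26 control and 76 knockout reads, which gives 2.77 (1.75 to 4.50). Their median ratio was 2.48, beside 2.998 over the whole table. Nothing is read from this share or from these ratios. Among the sensors, Rnf135, a ubiquitin ligase that like Trim25 acts on RIG-I, had 4 and 20 reads in a region spanning its start site (chromosome 11, 80183674 to 80184229), a ratio of 4.73 (1.59 to 19.0). It was the only one of the 8 whose interval lay above 1. Casp1, the inflammasome protease downstream of Aim2, had 3 and 8 reads, a ratio of 2.52 (0.606 to 14.8).

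In signalling, 2 of 17 genes had a region. Nmi, an interferon-inducible partner of STAT proteins, had 7 and 18 reads (2.43, 0.970 to 6.90), and Ifnar2, a chain of the type I interferon receptor, had 5 and 11 (2.08, 0.667 to 7.65). Of 37 other interferon-inducible effectors, 5 had a region, Bst2 among them. Ifi27 had 3 and 7 reads (2.21, 0.504 to 13.2), the helicase gene Ddx60 had 2 and 5 (2.37, 0.387 to 24.9) and Lgals9, which encodes galectin-9, had 1 and 4 (3.79, 0.375 to 186). Dtx3l, a ubiquitin ligase gene, had 1 and 3 reads, as did Bst2 and Oas1b. None of 12 interferon-inducible genes of antigen presentation had a listed region. The share over RefSeq protein-coding genes was 5.32%, and with groups this small nothing is read from these counts.

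**Figure D5:**
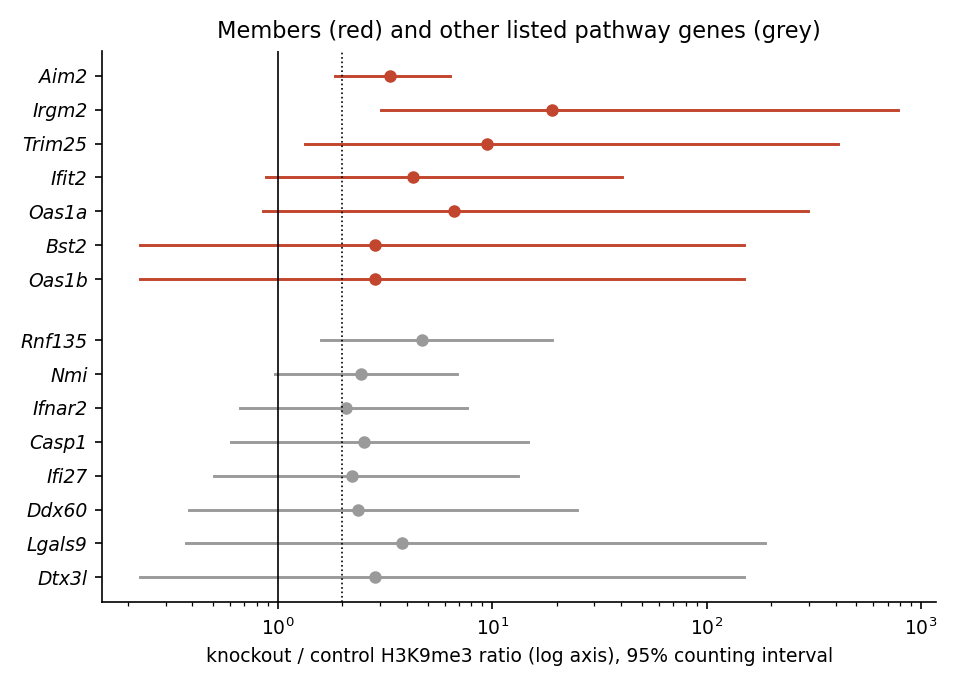
Knockout to control ratio of H3K9me3 on a log axis with its exact 95% counting interval, for the 7 members (red) and the 8 other listed genes of the pathway list (grey). The solid line marks a ratio of 1 and the dotted line the ratio of 2 below which no region is listed. Intervals lie above 1 for Aim2, Irgm2, Trim25 and Rnf135.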

How the data were processed

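For the H3K9me3 ChIP-seq libraries of LSK cells, the read trimmer Trimmomatic, the aligner Bowtie2 and the build mm10 are named without settings in the submitters' processing notes. Which program called the regions, in what window it counted and how it handled duplicate or multiply mapped reads is not given in the sources used here. Normalized H3K9me3 values, read here as RPM, were deposited by the authors, with the knockout to control ratio, and with H3K4me3 read counts and RPKM per region, whose library is not among the samples. In the deposited table, 23 other columns hold positions, names and caller statistics; the positions and names were used. All H3K9me3 values (100.0% in each library, tolerance 0.01 reads) were whole multiples of 0.0405 RPM (control) and 0.0384 RPM (knockout), which gave the reads and library totals.

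Ratios have exact Clopper-Pearson intervals (scipy 1.17.1), checked on simulated data, which cover counting error only and ignore the selection on the ratio. Log2 ratios used a pseudocount of 0.0405 RPM, the 5th percentile of all values. Region starts were converted from 0-based to 1-based. Groups came from the genotype labels. The members and lists were chosen with earlier results of these data known. The text names all members, up to 4 listed genes per pathway group by knockout reads, and the 2 regions nearest in pattern to members with at least 10 knockout reads. Alternatives covered the pseudocount, the scaling, the interval, the fold, a filter on low values, single members and gene synonyms. Of the pathway list, 6 older or alternative symbols were not in RefSeq.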

Additional observations from a re-analysis of the deposited data

How the results depend on the processing

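No paired analysis was possible because there was 1 library of each genotype, and no replicate could be left out. The members' median log2 ratio, 1.68 with the pseudocount of 0.0405 RPM, was 2.04 with a pseudocount 10 times smaller, 0.95 with one 5 times larger, and 0.21 when both libraries were scaled to the same sum over the table. That scaling moved the median of all regions from 1.26 to -0.13, as a table that holds only ratios above 2 forces, and turned Aim2 to -0.035 and Bst2 and Oas1b to -0.13 each, while the other 4 members stayed above 0. Under both pseudocounts all 14 recomputed member values lay inside their counting intervals, which are too wide to show stability, and no pseudocount could have turned their sign. The summed ratio of 4.52 ran from 3.83 without Irgm2 to 7.03 without Aim2, and was 4.58 over the 4 members whose mean level reached the table's median. The 4 members with a ratio of at least 4 became 2 when the fold was computed after adding the pseudocount, which lowers ratios that rest on 1 or 2 control reads. The 3 members with an interval above 1 became 2 with 99% intervals, where Trim25 was lost. Matching gene synonyms left 15 listed pathway genes. Depth limits single values: 5 of the 7 members had 1 control read.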
